A study of Mus musculus and synthetic construct with 15 samples.

Results

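Among the 3820 tested sequences of a cardiac reporter library, 97 are control regions whose deposited class is read here as one of bound regions. Their identifiers begin with ESC-Neg or ESC_Neg, read here as negative controls taken from embryonic stem cells, and the table's group column gives them a value other than Neg. These 97 are described here, and the 848 control regions with the value Neg serve as their comparison. The group value was TF1-2 for 53 of the 97, TF3-4 for 9, MTF or P300 for 28 and spMTF or spP300 for 7. The values are read as classes of occupancy by transcription factors (TF), several factors at once (MTF) or the coactivator p300, but the sources used here define neither them nor the prefix sp. Occupancy itself was not analysed here, so the class of a region could not be checked against binding data.

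Enhancers are stretches of DNA that bind transcription factors and raise transcription of a gene, often in particular cell types. In heart muscle, factors such as GATA4, NKX2-5, TBX5, MEF2 and TEAD1 bind many enhancers, frequently together, and the acetyltransferase p300 is recruited to active ones. A massively parallel reporter assay measures such activity by comparing the RNA that each candidate sequence yields with the amount of its DNA delivered. Negative controls in such an assay set the level given by sequences without activity in the tissue. A control bound by heart factors would be a mixed case.

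The pool was packaged in adeno-associated virus of serotype AAV9 and given to wild-type mouse pups on postnatal day 0, and the heart chambers were taken on postnatal day 7. The 3 groups were atrial RNA, ventricular RNA and DNA of the virus, with 5 libraries each. The labels give cardiomyocytes as the cell type of the RNA libraries. The assay counts reporter sequences alone, so no endogenous marker could be read to check the tissue. The DNA was that of the virus and not of the injected hearts. Nothing in the labels says that replicates came from separate animals, and p-values measure the spread between these libraries, which may be technical.

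The 97 regions lay on 19 chromosomes of the mm10 build, each 400 bp long. By RefSeq annotation of GRCm38, the same build, the midpoint of 42 fell in a protein-coding gene, that of 42 within 100 kb of one and that of 13 in neither. The share inside a gene was 43.3%, against 42.6% of the 848 Neg controls and 50% of all regions. Exons and introns were not told apart. No region of the 97 overlapped another region of the pool: the nearest lay 1262 bp away between midpoints, and the median distance was 231619 bp. A gene is named below for position, not as a target.

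Sequence could be read for the 5 regions that reach into a promoter window of the RefSeq table, which spans 250 bases before to 50 after a transcript's start. They are printed for that overlap and were not chosen by activity. They range from the lowest of the tested regions to regions above DNA, and the region of the C330002G04Rik window was not tested. Each is the shared stretch, 5′ to 3′ on the strand of the transcript, and capitals mark a searched motif on either strand.
Gm34403 window, chr2:170184718-170184871, minus strand, TF1-2: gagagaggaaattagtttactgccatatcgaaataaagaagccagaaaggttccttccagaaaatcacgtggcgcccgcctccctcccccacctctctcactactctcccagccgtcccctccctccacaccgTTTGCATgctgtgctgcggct
Gm38732 window, chr5:142509355-142509549, plus strand, TF1-2: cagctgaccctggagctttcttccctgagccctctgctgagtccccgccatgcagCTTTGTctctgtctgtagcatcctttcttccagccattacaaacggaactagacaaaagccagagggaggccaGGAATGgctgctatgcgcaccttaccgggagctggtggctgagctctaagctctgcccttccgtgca
Gm35837 window, chr10:77225403-77225636, plus strand, MTF or P300: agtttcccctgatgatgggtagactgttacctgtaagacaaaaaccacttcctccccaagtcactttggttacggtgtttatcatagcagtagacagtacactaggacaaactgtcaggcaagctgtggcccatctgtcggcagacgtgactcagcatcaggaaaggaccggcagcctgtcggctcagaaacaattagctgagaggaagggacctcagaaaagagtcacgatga
Gm39767 window, chr2:21964118-21964363, minus strand, MTF or P300: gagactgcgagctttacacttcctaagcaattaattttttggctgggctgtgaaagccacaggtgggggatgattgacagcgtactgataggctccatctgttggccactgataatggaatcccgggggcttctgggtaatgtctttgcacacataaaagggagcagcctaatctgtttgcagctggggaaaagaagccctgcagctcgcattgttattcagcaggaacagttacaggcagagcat
C330002G04Rik window, chr19:23075856-23076155, minus strand, TF1-2: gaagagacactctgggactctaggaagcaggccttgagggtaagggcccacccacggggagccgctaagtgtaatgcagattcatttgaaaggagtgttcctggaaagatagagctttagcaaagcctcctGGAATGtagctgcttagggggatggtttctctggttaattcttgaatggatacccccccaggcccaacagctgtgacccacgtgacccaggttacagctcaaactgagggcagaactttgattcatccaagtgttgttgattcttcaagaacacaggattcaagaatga

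The motifs searched were AGATAA (the zinc-finger GATA factors), GGAATG (TEAD), AGGTGT (T-box), TTAAGTG (NKX2-5), TAAAAATA (MEF2), AAGGTCA (estrogen-related receptors), ATGCAAA (the octamer of OCT4) and ACAAAG (SOX factors). The octamer letters were found once, in the Gm34403 stretch, and 2.10% of all promoter stretches at the same place and of the same length held them. The Gm38732 stretch held the TEAD and the SOX letters, which 10.4% and 13.3% of such stretches held. The C330002G04Rik stretch held the TEAD letters, as did 14.7%. None of the 8 motifs was found in the Gm35837 and Gm39767 stretches, which cover part of each region. GC content was 55.2% in the Gm34403 stretch, 56.9% in Gm38732, 49.6% in Gm35837, 49.2% in Gm39767 and 49.3% in C330002G04Rik. A match is a description of letters and not of binding.

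Libraries held 877773 to 3781726 counts, of which the 97 regions took 1.70% to 2.23% in RNA and 1.06% to 1.19% in DNA. Levels below are in CPM, counts relative to a library's total, scaled by TMM factors over all 15 libraries. By counting error alone, a count of 0 allows up to 3 counts, which is 2.85 CPM in the smallest library and 0.762 CPM in the largest. Both RNA libraries numbered 1 differed from the rest: of the 97 regions, 19 had 0 counts in atrial replicate 1 and 20 in ventricular replicate 1, against 1 to 3 in the other RNA libraries and 13 to 18 in the DNA libraries. The pool as a whole had this pattern. Of all 3820 regions, 765 and 700 had 0 counts in those 2 libraries, against 36 to 85 in the other RNA libraries and 657 to 731 in DNA. The 26 regions with a mean of under 10 counts in DNA held 0.00444% and 0.00653% of the counts of atrial and ventricular replicate 1 and 0.00121% to 0.00160% in DNA, but 0.472% to 0.626% in RNA replicates 2 to 5. Whether the DNA libraries are the input of replicates 2 to 5 was not tested, and the counts of calls over all tested regions are also given for replicates 2 to 5 alone.

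Of the 97 regions, 71 averaged 10 or more counts in DNA and were tested. They were fitted together with all 2601 regions of the pool that passed this minimum, by the quasi-likelihood test of edgeR with Benjamini-Hochberg adjustment over the 2601, and called at an adjusted p under 0.05. A log2 ratio of 0 therefore marks the typical region of the pool, not equal RNA and DNA.

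In atrium, reporter RNA of 27 of the 71 regions exceeded their DNA, 24 fell below it and 20 did not pass, where 74.7% of all tested regions were called. The higher share was 38%, against 38.4% of all tested regions and 24.5% of the Neg controls, and the lower share 33.8%, against 36.3% and 42.2%. The median log2 ratio of the 71 was -0.08, between -0.33 in the 469 tested Neg controls and 0.04 over all 2601 regions. In ventricle 26 regions were higher, 28 lower and 17 not called, where 81.3% of all tested regions were called. That is 36.6% higher, against 41.8% of all regions and 34.3% of the Neg controls, and 39.4% lower, against 39.5% and 41.4%, with a median of -0.22 against -0.14 in Neg and 0.06 over all. In both chambers the shares were therefore near those of the pool as a whole. The RNA and DNA libraries did not overlap for 45 of the 71 regions in atrium, where 60.9% of all regions did not, and for 47 in ventricle, where 70.1% did not. With replicates 2 to 5 alone the atrial counts were 26 higher and 21 lower, and the ventricular ones 26 and 26. The split depends on the scaling: with TMM factors from the Neg regions atrium had 30 higher and 14 lower and ventricle 28 and 24. With library totals atrium had 29 and 15 and ventricle 29 and 21. The Neg scaling moved the median of all regions from 0.04 to 0.47 in atrium and from 0.06 to 0.23 in ventricle.

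The chambers share the DNA libraries, so their calls are given side by side. Of the 71 regions, 22 were higher than DNA in both chambers, 21 were lower in both and 10 were called in neither. In this fit a single region was called in opposite directions, on chromosome 11. The Gm38457 region was also called in opposite directions under some other settings, given below. The Neg controls give a further yardstick: 95% of the tested ones had a log2 ratio at or under 2.5 in atrium and 2.90 in ventricle. In atrium 6 of the 71 regions (8.45%) lay above that level, and in ventricle 4 (5.63%). All of these had a mean of under 100 DNA counts, whereas the level pools Neg controls of every DNA abundance. The share of all tested regions above it is not given. Below the level that 5% of the Neg controls do not reach, -1.82 in atrium and -1.83 in ventricle, lay 4 and 5 of the 71.

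The ratio of RNA to DNA varied with DNA abundance, in the 97 as in the Neg controls and the pool. At a mean DNA count of 300 or more, 9 of 28 regions (32.1%) exceeded DNA in atrium, against 5.14% of 175 Neg controls and 20.1% of all 1177 regions. The median log2 ratio there was -0.31, against -0.94 and -0.66. Called lower in atrium were 46.4%, against 73.7% and 61.1%. In ventricle 7 of 28 (25%) exceeded DNA, against 14.3% and 21.8%, with a median of -0.42 against -0.83 and -0.75. Called lower in ventricle were 57.1%, against 73.7% and 65.7%. At 100 to under 300 counts the medians of the 19 regions were -0.36 in atrium and -0.49 in ventricle. They were -0.33 and -0.15 in Neg and 0.20 and 0.22 over all. In each chamber 21.1% of the 19 were higher, against 16.5% and 29.6% of Neg and 40.5% and 45.8% of all. Lower were 42.1% and 47.4%, against 37.4% and 40.9% of Neg and 27% and 31.9% of all. At 10 to under 100 counts the 24 regions had medians of 0.99 and 1.12, against 0.77 and 0.98 in Neg and 1.21 and 1.36 over all. Of the 24, 58.3% and 62.5% were higher, against 48.6% and 57% of Neg and 62.2% and 66.6% of all. In each chamber 12.5% were lower, against 14.5% and 10.1% of Neg and 8.43% and 8.55% of all. These are descriptions of lists and were not tested as differences between them.

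By group value, the tested MTF or P300 regions had the highest medians. Of their 22 tested members, 11 (50%) were higher and 7 lower in atrium, with a median log2 ratio of 0.15, and 10 and 7 in ventricle, with 0.14. The 1148 tested regions of that value without the control tag had 46.3% higher in atrium and 47.2% in ventricle, with medians of 0.30 and 0.26. Called lower among these 1148 were 32.6% by atrial RNA and 37.7% by ventricular RNA. The 37 tested TF1-2 controls had 13 higher and 11 lower in atrium, with a median of -0.07. In ventricle they had 14 higher and 15 lower, with -0.25. The 191 TF1-2 regions without the tag had 29.3% and 31.4% higher and medians of -0.24 and -0.35. Called lower among these 191 were 44.5% by atrial RNA and 46.6% by ventricular RNA. Of the 7 tested TF3-4 controls, 1 was higher and 3 lower in each chamber, with medians of -0.17 and -0.53, against -0.31 and -0.36 in the 207 others of that value. Atrial RNA of those 207 exceeded DNA for 30.9% and fell below it for 44.9%. Their ventricular RNA exceeded DNA for 30.9% and fell below it for 49.3%. With 5 to 37 tested regions per value, these medians rest on few sequences.

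In atrium the highest ratio among the 71 tested regions was that of a region inside Macf1 (chr4:123624467-123624866, MTF or P300), the gene of a linker between microtubules and actin. It read 195, 424, 259, 258 and 161 CPM in atrial replicates 1 to 5 and 8.91 to 20.8 CPM in DNA. Every atrial library therefore stood far above every DNA library, and the log2 ratio was 3.97 ± 0.29 (SE; adjusted p = 2.5e-08). The region was also high in ventricle, at 85.8 to 131 CPM and a log2 ratio of 2.85 ± 0.21.

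A region 13087 bp from Rbpj, the DNA-binding effector of Notch signalling (chr5:53670333-53670732, TF1-2), ranked second in atrium and first in ventricle among the tested regions. Its atrial libraries read 28.5, 108, 454, 160 and 206 CPM, its ventricular ones 65.7, 403, 413, 434 and 410, and DNA 10.6 to 20.3. The lowest value of each chamber was that of replicate 1. The log2 ratio was 3.51 ± 0.58 in atrium and 4.42 ± 0.51 in ventricle (adjusted p = 0.00018 and 3.0e-05). In log2(CPM + 1) over the mean of DNA it was 0.81 in atrial replicate 1 and 3.79 in replicates 2 to 5, and 1.99 and 4.63 in ventricle. Without atrial replicate 3 the fitted atrial value was 2.91.

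Inside Fam110b, the only one of the 5 tested spMTF or spP300 regions called above DNA in both chambers (chr4:5732545-5732944) had 190 to 293 CPM in atrium, 439 to 526 in ventricle and 26.2 to 42.7 in DNA. Its log2 ratio was 2.67 ± 0.18 in atrium and 3.76 ± 0.14 in ventricle. A TF1-2 region inside Tspan3, which encodes a tetraspanin membrane protein (chr9:56145538-56145937), had 33.2 to 112 CPM in atrium, 163 to 191 in ventricle and 8.91 to 14.4 in DNA, with ratios of 2.67 ± 0.33 and 3.92 ± 0.17. For both, the libraries of the 3 groups were fully separated, with ventricle on top and DNA lowest.

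A region inside Pmepa1, an inhibitor of TGF-beta signalling (chr2:173253738-173254137, TF1-2), was alike in the chambers, at 36.9 ± 5.54 CPM in atrium, 35.9 ± 6.58 in ventricle and 5.11 ± 0.923 in DNA (SD, n = 5). Its log2 ratios of 2.77 and 2.79 rest on a mean of 11.4 DNA counts. A region 54921 bp from Hsd17b3, an enzyme of testosterone synthesis (chr13:64003154-64003553, TF1-2), varied in atrium from 16.0 to 93.0 CPM and in ventricle from 55.6 to 99.8, with log2 ratios of 2.51 ± 0.41 and 3.08 ± 0.22. A region of chromosome 15 with no protein-coding gene in 100 kb (chr15:52967842-52968241, MTF or P300) had 31.3 to 95.4 CPM in atrium and 7.45 to 13.1 in DNA, a log2 ratio of 2.40 ± 0.33. All of these regions had under 100 mean DNA counts, the range in which the median of all regions was already above 1 on the log2 scale.

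A region inside Epb41l4a on chromosome 18 (MTF or P300), which encodes a protein of the band 4.1 family, stood high at ample depth, with a mean of 411.4 DNA counts. Its atrial libraries read 864, 723, 1015, 1061 and 1194 CPM, its ventricular ones 827 to 1001, and DNA 159 to 218. The libraries of each chamber lay wholly above DNA. The log2 ratio was 2.34 ± 0.13 in atrium and 2.29 ± 0.09 in ventricle (adjusted p = 1.7e-09 and 1.2e-12). A TF3-4 region 16391 bp from Xpo6, the nuclear exporter of actin and profilin (chr7:126216731-126217130), was also among the highest 8 of the ventricle, at 311 to 399 CPM against 59.6 to 81.4 in DNA, and was the only one of the 7 tested TF3-4 regions called above DNA. Its log2 ratio was 2.32 ± 0.12 in ventricle and 1.82 ± 0.19 in atrium.

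At the other end, the region that overlaps the Gm34403 window, 32994 bp from Zfp217, the gene of a zinc-finger transcription factor (chr2:170184472-170184871, TF1-2), gave the least RNA for its DNA in both chambers among the tested regions. Its DNA libraries held 586 to 756 CPM, its atrial libraries 159, 102, 53.1, 56.4 and 63.6 and its ventricular ones 51.6, 56.9, 32.1, 33.8 and 38. The RNA libraries stayed far under every DNA library. The log2 ratio was -2.99 ± 0.29 in atrium and -3.96 ± 0.15 in ventricle (adjusted p = 9.7e-07 and 9.7e-13). It is the region whose printed stretch holds the octamer letters.

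A region inside Ebf1, a transcription factor of B cells and adipocytes (chr11:44746717-44747116, MTF or P300), had 442 to 514 CPM in DNA and 53.7 to 110 in atrium and 66.0 to 129 in ventricle, with log2 ratios of -2.48 ± 0.16 and -2.21 ± 0.14. A region 83190 bp from Sec61g, a subunit of the protein translocation channel (chr11:16591475-16591874, spMTF or spP300), read 67.4, 8.30, 53.5, 19.1 and 6.75 CPM in atrium and 92.0 to 123 in DNA. Its atrial ratio of -1.85 ± 0.53 hides a wide spread between libraries, while in ventricle it was -2.35 ± 0.22. Near Fgd2, an activator of the GTPase CDC42 (chr17:29397997-29398396, MTF or P300), atrial values ran from 0 to 18.1 CPM against 20.9 to 25.7 in DNA. The log2 ratio there was -1.88 ± 0.77 in atrium (adjusted p = 0.043) and -2.60 ± 0.46 in ventricle. It was -2.94 without atrial replicate 3 and -3.42 in ventricle without ventricular replicate 5. The atrial call was lost without any 1 of the DNA libraries or of atrial replicates 2, 4 and 5 (adjusted p of 0.054 to 0.0908). It was also lost with scaling on the Neg regions (adjusted p = 0.11), with library totals (0.0915) and without a filter (0.0821).

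A region inside Igf2bp3, an RNA-binding protein of fetal tissue (chr6:49210400-49210799, TF3-4), had log2 ratios of -1.64 ± 0.21 in atrium and -1.93 ± 0.24 in ventricle. One 83800 bp from Calm2, a calmodulin gene (chr17:87530536-87530935, MTF or P300), had -1.57 ± 0.33 and -1.48 ± 0.25. Inside Hspg2, which encodes the basement membrane proteoglycan perlecan (chr4:137476304-137476703, TF1-2), DNA stood at 402 to 493 CPM and RNA at 139 to 185 in atrium and 129 to 176 in ventricle. Its ratios were -1.53 ± 0.11 and -1.51 ± 0.11. A region inside Ptpn13, a protein tyrosine phosphatase (chr5:103435986-103436385, TF1-2), had -1.51 ± 0.24 and -1.21 ± 0.26.

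Of the 5 tested spMTF or spP300 regions, the smallest class, 2 were above and 3 below DNA in atrium. In ventricle 1 was above, 3 were below and 1 was not called. Of the 515 tested regions of that value without the control tag, 39.8% were above and 33.2% below in atrium and 45.2% and 35.3% in ventricle. The medians were -0.83 in atrium and -0.58 in ventricle, against 0.15 and 0.22 in those others. Besides the Fam110b and Sec61g regions these were regions inside Mras, a RAS-family GTPase (chr9:99420308-99420707), at -1.29 ± 0.19 and -1.43 ± 0.19, inside Smarca2, the ATPase BRM of chromatin remodelling complexes (chr19:26613543-26613942), at -0.83 ± 0.18 and -0.58 ± 0.10, and inside Gm38457 (chr5:64806108-64806507). The atrial call of the Smarca2 region was lost with scaling on the Neg regions (adjusted p = 0.0601). The Gm38457 region was above DNA in atrium at 0.74 ± 0.13 and at -0.25 ± 0.12 in ventricle (adjusted p = 0.0696). That ventricular value was called below DNA without DNA replicate 3 or ventricular replicate 4 or 5 (adjusted p of 0.038 to 0.0437). It was also called below DNA with DESeq2 (-0.28, adjusted p = 0.0305) and with RLE size factors (-0.28, 0.0398). The same held with filterByExpr of edgeR (-0.47, 0.0026) and without a filter (-0.42, 0.00347). With library totals it was 0.02 (adjusted p = 0.891).

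Between the chambers, 7 of the 71 regions had more RNA in atrium and 13 more in ventricle, and 51 did not pass, where 30.9% of all tested regions were called. That is 9.86% and 18.3%, against 15.8% and 15.2% of all tested regions and 3.20% and 12.4% of the Neg controls. The median log2 atrium over ventricle was -0.05, against -0.14 in Neg and 0.02 over all. The atrial and ventricular libraries did not overlap for 16 of the 71 regions, where 22.7% of all regions did not. With replicates 2 to 5 alone atrium was higher for 8 and ventricle for 11, and 17 of the 20 calls were shared. Scaled on the Neg regions, the counts turned to 11 and 6, since that moved the median of all regions from 0.02 to 0.19, so the lean to ventricle is relative to the bulk of the pool. By group value the counts in atrium and ventricle were 2 and 5 of 37 for TF1-2, 0 and 2 of 7 for TF3-4, 4 and 5 of 22 for MTF or P300 and 1 and 1 of 5 for spMTF or spP300. No difference between group values was tested.

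Among the tested regions the widest chamber difference was at a TF1-2 region of chromosome 11 with no protein-coding gene in 100 kb (chr11:22629578-22629977). It read 1900, 1877, 2564, 2209 and 2301 CPM in atrium, 647, 613, 766, 642 and 779 in ventricle and 842 to 967 in DNA. All atrial libraries lay above the DNA libraries and all ventricular ones below them. The region was 3.13-fold higher in atrium (log2 1.65 ± 0.10, adjusted p = 1.5e-08), at 1.20 ± 0.09 over DNA in atrium and -0.40 ± 0.08 in ventricle. With a mean of 2033 DNA counts it was also the most abundant of the regions that differed.

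The Macf1 region was 2.25-fold higher in atrium than in ventricle (log2 1.17 ± 0.23) and the Gm38457 region 2.07-fold (1.05 ± 0.15, at 215 to 311 against 109 to 138 CPM). The region overlapping the Gm35837 window, 33479 bp from Pofut2, an O-fucosyltransferase (chr10:77225403-77225802, MTF or P300), read 387, 273, 150, 153 and 140 CPM in atrium and 104 to 123 in ventricle, a log2 difference of 0.97 ± 0.26. Its atrial excess over DNA (0.84 ± 0.28) was 1.71 in replicate 1 and 0.60 in replicates 2 to 5 in log2(CPM + 1). The Zfp217 region was higher in atrium at 1.02 ± 0.32 (adjusted p = 0.0232), between levels that were both far below DNA. This call was lost with replicates 2 to 5 alone (0.78, adjusted p = 0.0698) and without atrial replicate 1 (0.70, adjusted p = 0.0801) or 2, or ventricular replicate 3, 4 or 5, and without a filter (adjusted p = 0.059) or with filterByExpr of edgeR (0.065). A region 7257 bp from Gm42048 (chr8:121850960-121851359, MTF or P300) and one inside Fam178b (chr1:36580412-36580811, MTF or P300) had differences of 0.77 ± 0.13 and 0.69 ± 0.13, both with less ventricular RNA than DNA. The Gm42048 region was called below DNA in atrium as well (-0.62 ± 0.12), a call lost with scaling on the Neg regions (adjusted p = 0.171). In atrium the Fam178b region was not called against DNA (-0.23 ± 0.10, adjusted p = 0.0594).

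On the ventricular side, a TF1-2 region inside Clybl, a mitochondrial enzyme gene (chr14:122332087-122332486), read 67.4, 75.2, 44.4, 58.2 and 72.0 CPM in atrium and 167, 144, 161, 169 and 127 in ventricle. The groups were apart by a wide margin, 2.43-fold (log2 -1.28 ± 0.19, adjusted p = 9.5e-05). The Tspan3 region followed at -1.21 ± 0.25 and the Fam110b region at -1.04 ± 0.12. A region inside Schip1, which encodes a cytoskeletal scaffold protein (chr3:68534770-68535169, MTF or P300), had 906 to 1182 CPM in atrium, 1874 to 2089 in ventricle and 577 to 657 in DNA, again with 3 separate groups, and a difference of -0.87 ± 0.08.

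Inside Plbd2, a lysosomal protein gene (chr5:120490781-120491180, MTF or P300), and Sh3bp4, a regulator of endocytosis (chr1:89102833-89103232, MTF or P300), the differences were -0.69 ± 0.10 and -0.68 ± 0.12. The region near Ddx47, an RNA helicase gene (chr6:135040361-135040760, MTF or P300), had -0.61 ± 0.16. A region inside Abl1, a tyrosine kinase (chr2:31700480-31700879, TF3-4), had -0.53 ± 0.14. The Xpo6 region had -0.46 ± 0.16. Inside Plagl1, an imprinted zinc-finger gene (chr10:13107931-13108330, TF1-2), the difference was -0.32 ± 0.09, and 17190 bp from Tubb2b, a beta-tubulin (chr13:34109619-34110018, TF1-2), it was -0.29 ± 0.09. The calls at Ddx47, Abl1, Xpo6, Plagl1 and Tubb2b were lost with scaling on the Neg regions (adjusted p of 0.0528 to 0.362), with every sign kept. At Tubb2b the call was also lost with replicates 2 to 5 alone (adjusted p = 0.0766). The Xpo6 call was lost without any 1 of 7 of the 10 libraries: atrial replicates 3 to 5 and ventricular replicates 2 to 5 (adjusted p of 0.0548 to 0.0857). It was also lost with library totals (adjusted p = 0.0758), without a filter (0.14) and with filterByExpr of edgeR (0.124).

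The Tubb2b call was also lost without atrial replicate 5 or ventricular replicate 1 or 3 (adjusted p of 0.0524 to 0.0624), with library totals (0.0686) and without a filter (0.0502). Same-numbered libraries of the chambers deviated together for replicate 1 alone, so the replicate number is not shown to be a pairing. With the replicate number as a block, 3 more regions were called between chambers and no call was lost. They were the Rbpj region (-1.07, adjusted p = 0.00202, against 0.431 without the block), a region inside Tead1 (-0.37, adjusted p = 0.0466, against 0.0521) and one near Rala, a RAS-like GTPase gene (0.76, adjusted p = 0.0363, against 0.0613).

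A list of 37 heart muscle genes and one of 32 embryonic stem cell genes were set against the nearest genes. Of the 97 regions, 1 lay at a gene of the heart list and 2 at genes of the stem cell list, against 2 and 16 of the 848 Neg controls and 56 and 21 of all 3820 regions. The heart gene was Tead1, a factor of the Hippo pathway and of muscle genes (chr7:112691474-112691873, TF1-2, inside the gene). Its region read 222 to 308 CPM in atrium, 282 to 380 in ventricle and 163 to 189 in DNA, with log2 ratios of 0.48 ± 0.12 and 0.89 ± 0.10 (adjusted p = 0.0029 and 7.0e-07).

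The first stem cell gene was Nanog, a homeobox factor that maintains pluripotency, 4937 bp from an MTF or P300 region (chr6:122702353-122702752). Atrial libraries read 950, 1075, 986, 1075 and 880 CPM, ventricular ones 1168.5, 1333, 1426, 1180 and 1240, and DNA 514, 466, 539, 413 and 482. Each chamber stood above DNA, and ventricle above atrium, without overlap. The log2 ratio was 0.98 ± 0.09 in atrium and 1.39 ± 0.08 in ventricle, and the chamber difference -0.36 ± 0.08 (adjusted p = 0.0039). The chamber call was lost with scaling on the Neg regions (-0.19, adjusted p = 0.0903). The other was Otx2, a homeobox gene of the early forebrain, 41948 bp from a TF1-2 region (chr14:48709393-48709792) with a mean of 6.00 DNA counts, which was therefore not tested. It read 5.70 to 31.5 CPM in atrium, 12.4 to 19.5 in ventricle and 1.74 to 4.09 in DNA.

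The other regions with printed sequence can be set beside these. The region of the Gm39767 window (chr2:21963964-21964363) exceeded DNA in both chambers, at 1.30 ± 0.23 and 1.44 ± 0.18. That of the Gm38732 window, inside Radil (chr5:142509150-142509549), was below it at -1.16 ± 0.37 and -0.95 ± 0.20, and its atrial call was lost with scaling on the Neg regions (adjusted p = 0.0886). The region of the C330002G04Rik window (chr19:23075777-23076176) had 0 counts in all DNA libraries and in both replicate 1 RNA libraries, but its other RNA libraries read 13.3 to 34.9 CPM in atrium and 16.7 to 23.1 in ventricle.

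That pattern was common among the 26 regions with a mean of under 10 DNA counts, 26.8% of the 97, against 44.7% of the Neg controls and 31.9% of all regions. Of the 26, 11 had no DNA count at all. In 17 both replicate 1 RNA libraries were at 0, and 15 of those 17 had counts in all 8 RNA libraries of replicates 2 to 5. For 20 of the 26, RNA of replicates 2 to 5 was at least 10 times the DNA level in a chamber. The 11 without a DNA count met this with any RNA count, however low. The 26 were picked for scarce DNA, which favours a high ratio of RNA to DNA. No share over the scarce regions of the pool is given, so these counts do not mark a trait of the 97. These values carry no test against DNA.

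The most abundant was a TF1-2 region of chromosome 19 with no protein-coding gene in 100 kb (chr19:49896341-49896740). It had 3006, 3707, 3131 and 3465 CPM in atrial replicates 2 to 5 and 3659, 3484, 3405 and 3416 in ventricular ones. In replicate 1 it had 0.949 CPM in atrium and 0 counts in ventricle, and DNA held 2 counts over 5 libraries. By its mean in replicates 2 to 5 it ranked 22 among all regions in atrium and 25 in ventricle. A region inside Tmem245 (chr4:56932105-56932504, MTF or P300) had 359 to 504 CPM in atrium and 596 to 719 in ventricle in those replicates, with 0 counts in replicate 1. A region 1435 bp from Tead4, a TEAD factor of the early embryo (chr6:128225509-128225908, TF1-2), had 194 to 241 and 241 to 310 CPM, against 0.949 CPM and 0 counts in replicate 1. A region inside Pfdn1, a subunit of the prefoldin chaperone, on chromosome 18 had 130 to 187 and 212 to 250 CPM. A region inside Ubr4, a ubiquitin ligase (chr4:139385904-139386303, TF1-2), had 71.6 to 123 and 229 to 282 CPM.

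Since a comparison of the chambers needs no DNA, these regions were also fitted in replicates 2 to 5 alone, together with all regions that had a count there. This fit was chosen after the data were seen. Of the 26 regions, 25 had a count, and 7 were higher in ventricle and 1 in atrium by edgeR with Benjamini-Hochberg adjustment, where 10.3% of all 3812 regions were called higher in ventricle and 12.8% in atrium. The Ubr4 region had a log2 difference of -1.28 ± 0.19 (adjusted p = 0.00016), with no overlap between chambers. A region inside Rims1, a protein of synaptic release sites (chr1:22466588-22466987, TF1-2), had -1.42 ± 0.32, at 13.3 to 28.7 CPM in atrium and 50.3 to 73.4 in ventricle. The atrial region lay on chromosome 10 with no protein-coding gene in 100 kb (chr10:95719456-95719855, MTF or P300), at 1.45 ± 0.39 (adjusted p = 0.0147), with 37.1, 156, 172 and 67.5 CPM in atrium and 27.6 to 50.9 in ventricle, so that its chambers overlapped. The abundant chromosome 19 region had -0.02 ± 0.07. A TF1-2 region inside Arid5b (chr10:68229987-68230386) had 0 counts in all 10 RNA libraries and 4 in DNA.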

How the data were processed

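The deposited table holds whole-number counts per region and library. Per the submitters' processing notes, the authors used cutadapt 2.5, Bowtie2 2.3.4.3 and the mm10 build. No source used here says whether these are reads or collapsed molecular identifiers, and limits cover counting error only. Library totals ran from 877773 to 3781726 counts.

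Atrial RNA over DNA, ventricular RNA over DNA and atrium over ventricle were each fitted in their 10 libraries with edgeR 4.0.16 in R 4.3.3 (TMM factors, robust quasi-likelihood test), over the 2601 regions that averaged 10 or more DNA counts, with Benjamini-Hochberg adjustment over these. The script was tested on simulated counts with known changes, for the 3 comparisons in this order. Of 2-fold changes it recovered 68.7%, 86.6% and 58.2%, and of 1.5-fold changes 38.8%, 53.7% and 25.4%. Of its calls 4.26%, 4.22% and 5.6% were false. A region that was not called can therefore still differ by such folds. CPM were scaled over all 15 libraries, so their ratios differ slightly from fitted values.

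Regions named are the 8 largest log2 ratios in each direction among called regions whose libraries do not overlap, every region called between chambers (1 is not reported here), every tested region of the smallest class, and up to 5 regions under the DNA minimum with RNA at least 10 times DNA. The order of these 5 (highest RNA in replicates 2 to 5), the motif letters and the scaling of CPM were chosen after the data were seen. So were the regions in Rims1, Ext1 and Arid5b, near Rala and on chromosome 10. The regions of the Gm39767, Gm38732 and C330002G04Rik windows are named for their sequence, those at Tead1, Nanog and Otx2 for the gene lists. The members and lists were chosen with earlier results of these data known.

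Scaling on the Neg regions was first computed from their summed counts. That left their median off 0, so TMM factors on those regions replaced it after the first output was seen. Other alternatives were DESeq2 1.42.0, RLE size factors, library totals, other filters, replicates 2 to 5, and each library left out.

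Same-numbered atrial and ventricular libraries deviated together (r of 0.82 for replicate 1 and 0.225 to 0.24 for the others). Within replicates 2 to 5 alone r was -0.0246 to 0.0409. The shared deviation therefore rests on replicate 1, and the values do not show that libraries of one number are pairs. RNA and DNA libraries of one number did not deviate together (r of -0.0313 to 0.0606).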

Additional observations from a re-analysis of the deposited data

Results flagged for a closer look

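Of 102 groups of 5 libraries examined over 34 named regions, 6 held a library apart from the other 4 by Dixon's criterion, where chance flags about 1 in 20 groups. They were ventricular replicate 2 at Pmepa1 (47.3 CPM, the highest), atrial replicate 5 at Gm42048 (642 CPM, the highest), atrial replicate 3 at Fam178b (688 CPM, the highest), ventricular replicate 2 at Plbd2 (600.56 CPM, the lowest), ventricular replicate 1 at Ptpn13 (83.8 CPM, the highest) and ventricular replicate 1 at Rbpj (65.7 CPM, the lowest).

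The RNA of 20 tested regions differed between chambers by edgeR's quasi-likelihood test. Higher in atrium on the log2 scale were the chromosome 11 region without a protein-coding gene nearby (1.65), Macf1 (1.17), Gm38457 (1.05), Zfp217 (1.02), Pofut2 (0.97), Gm42048 (0.77) and Fam178b (0.69). Among those lower in atrium were Clybl (-1.28), Tspan3 (-1.21), Fam110b (-1.04), Schip1 (-0.87), Plbd2 (-0.69), Sh3bp4 (-0.68), Ddx47 (-0.61), Abl1 (-0.53), Xpo6 (-0.46), Nanog (-0.36), Plagl1 (-0.32) and Tubb2b (-0.29).

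Among the 26 regions under the DNA minimum, 20 had RNA in replicates 2 to 5 at least 10 times their DNA in a chamber. They include 11 with no DNA count, which met this with any RNA count. The 26 were picked for scarce DNA, and no share over the scarce regions of the pool is given. Whether the DNA libraries lack regions that the virus given to those hearts carried was not tested.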

How the results depend on the processing

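Without a filter, 46 regions were higher than DNA in atrium and 49 in ventricle, since the 26 regions scarce in DNA then entered. With library totals 15 were lower in atrium, and the Gm38457 ventricular ratio turned from -0.25 to 0.021. With scaling on the Neg regions 14 were lower in atrium, and between chambers 11 were higher in atrium and 6 in ventricle. No other count of calls moved by over 1.5 times. With the replicate block, 24 were higher and 26 lower in atrium, 26 and 29 in ventricle, and 8 and 15 were higher in atrium and ventricle between chambers, and beyond the 3 chamber calls given above this changed 5 calls against DNA in atrium and 1 in ventricle. Leaving out 1 library at a time gave 24 to 28 higher and 21 to 26 lower in atrium, 25 to 27 and 27 to 31 in ventricle, and 7 to 9 higher in atrium and 11 to 13 in ventricle between chambers. Over the named regions and all alternatives, 1044 values kept direction and call, 51 lost the call, 7 gained one and 1 turned direction; the cause was not tested. Depth limits the regions with few DNA counts, where a ratio rests on 10 counts or few more.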
